A study of Drosophila melanogaster with 4 samples.

Results

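The regions described here are the LSD1-enriched regions that lie on chromosome 4, on the heterochromatic contigs 2LHet, 2RHet, 3LHet, 3RHet, XHet and YHet, and on the unplaced sequence U of the Drosophila melanogaster genome. They were chosen by position alone, as every region of significant enrichment that the 3 deposited lists place on these sequences. Replicate 1 listed 157 such regions of 8115 in all, replicate 2 listed 113 of 9911, and the combined list of the replicate set held 162 of 11016. Regions of different lists that shared at least 1 bp were joined, which gave 171 merged regions of 10985 over all sequences. Of these, 85 lay on chromosome 4, 59 on the Het contigs and 27 on U. Every region carries the authors' score, taken to be log2 enrichment from its values because no header names the scale.

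The study profiled LSD1 by ChIP-seq in nuclei from heads of mixed adults of the wild-type strain Oregon-R. There were 2 ChIP libraries made with the LSD1 antibody Q3430 and 2 libraries of input chromatin, which is sonicated chromatin that was not precipitated. The labels tie each input to the list of the ChIP library with the same number, so each replicate list was taken as ChIP over its own input. How the combined list was made is not stated, and it was read as a further call and not as another replicate. All 4 samples shared strain, genotype, stage and tissue, and both ChIP libraries the antibody. Flies came from population cages and heads were separated with sieves, so a region averages over all cell types of the head. Neither the sex of the flies nor whether the replicates were separate collections is stated in the labels, and the spread between replicates may be technical. With 2 replicates a two-sided exact sign-flip test cannot give a p below 0.5, so values are given as they stand and no difference was tested. The depth behind single regions is unknown, because no source used here gives the reads of a library.

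LSD1, encoded in flies by Su(var)3-3, is a demethylase that removes methyl groups from lysine residues of histone H3, and its fly gene was found through mutations that weaken heterochromatic silencing. Chromosome 4 is a very small autosome on which active genes sit within chromatin rich in the heterochromatin protein HP1a, and the protein POF binds along it. Apart from YHet, which belongs to the Y chromosome, the Het contigs are assembled pieces of pericentric heterochromatin next to the arms named in their labels. U gathers sequence that could not be placed. The Het contigs and U are rich in repeats, on which short reads often cannot be placed uniquely. The lists carry no histone mark and no gene name, so the chromatin state of these sequences rests on their names, and regions are identified by their release 5 coordinates.

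Chromosome 4 carried LSD1-enriched regions along most of its length, and less of it was covered than of the autosome arms 2L, 2R, 3L and 3R. Replicate 1 listed 86 regions on it, replicate 2 listed 64 and the combined list 85. That came to 63.6 and 47.3 regions per Mb in replicates 1 and 2 (55.5 ± 11.5, SD, n = 2), against 65.2 and 84.8 per Mb on the autosome arms (75.03 ± 13.8). The density on chromosome 4 was thus close to that of the autosome arms in replicate 1 and at 0.558 of it in replicate 2. Regions covered 21.0% of chromosome 4 in replicate 1 and 13.1% in replicate 2 (17.0% ± 5.54), against 26.8% and 29.6% of the autosome arms. In the combined list the covered share was 22.1% on chromosome 4 and 37.2% on the autosome arms. Coverage was lower on chromosome 4 in each of the 3 lists, and the gap was wider in replicate 2. The X arm had 27.8% and 20.4% covered in replicates 1 and 2, so X, like chromosome 4, had less covered in replicate 2 than in replicate 1, whereas the autosome arms had more.

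Heterochromatic and unplaced sequence held few regions per unit of length. The Het contigs and U together make up 11.5% of the assembled length and contributed 71 regions to replicate 1, 49 to replicate 2 and 77 to the combined list. The density was 3.67 and 2.53 regions per Mb in replicates 1 and 2 (3.10 ± 0.805, SD, n = 2), and 0.962% and 0.556% of the length was covered. The Het contigs alone had 54 and 41 regions in replicates 1 and 2, and U had 17 and 8. The density differed among the contigs. XHet had 14.7 regions per Mb in each replicate, from 3 regions each, whereas 2RHet had 5.17 and 2.74 per Mb and 3RHet 4.77 and 3.97. On 3LHet 20 regions in replicate 1 and 17 in replicate 2 gave 7.83 and 6.65 per Mb, and 2LHet had 2 regions in each. YHet had 0 regions in all 3 lists over its 347 kb. How much of each sequence can take uniquely placed reads is not known here, so a density per full length cannot be told apart from a density per readable length.

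The regions on these sequences were of similar median width to those of the autosome arms, and a smaller share of them was broad than over all sequences. Median widths on chromosome 4 were 2341 bp in replicate 1 and 2070.5 bp in replicate 2, against 2180 bp and 2136 bp on the autosome arms. For the Het contigs and U they were 2292 bp and 2045 bp. The difference from the autosome arms took opposite signs in the 2 replicates for both sets. The likeness did not hold for the upper 50% of regions by score. There the difference was -1023 bp on chromosome 4 and -1248.75 bp on the Het contigs and U. Regions of at least 10 kb numbered 3, 2 and 4 on chromosome 4 in replicate 1, replicate 2 and the combined list, or 3.49%, 3.13% and 4.71% of its regions, where the shares over all sequences were 7.57%, 4.46% and 8.39%. The Het contigs and U had 1, 0 and 1 such regions, or 1.41%, 0% and 1.30%. With so few broad regions these shares rest on single regions. On X the shares were 6.47%, 2.24% and 6.27% in the same order, so in replicate 2 X lay below chromosome 4. After merging, 4 regions of chromosome 4 reached 10 kb and made up 78.2 kb, or 23.8% of the merged length there.

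Each broad region of chromosome 4 was held by all 3 lists, although the lists cut 3 of the 4 differently. The widest, 4:831328-856620, spanned 25.3 kb and was 1 region in the combined list (score 0.85), 4 in replicate 1 with a highest score of 1.16, and 5 in replicate 2 with a highest score of 1.16. The region 4:1000122-1021754 of 21.6 kb was unbroken in replicate 1 (1.11) and split in 3 in replicate 2 (highest 1.23), with 1.02 in the combined list. At 4:522153-541830, 19.7 kb wide, replicate 1 again had a single region (0.84) and replicate 2 had 4 (highest 0.70), with 0.60 combined. The highest replicate scores of these 3 domains were within 0.15 of each other on the log2 scale. Pairs matched by longest overlap inside them differed more, by up to -0.55 (replicate 1 minus replicate 2) at 4:831328-856620 and by 0.36 at 4:522153-541830. The fourth, 4:86497-98078, was 11.6 kb wide and unbroken in all lists, with 1.73 in replicate 1, 1.18 in replicate 2 and 1.48 combined. Beside it lay 4:101596-110941, 9.35 kb wide, with 1.77 in replicate 1, a highest score of 1.10 over 2 regions in replicate 2, and 1.03 combined. In the pair matched by longest overlap there, replicate 1 was higher by 1.07.

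Neighbouring regions also formed longer runs. A search made after the values were seen took runs of at least 3 merged regions less than 1 kb apart. The longest run, of 6 merged regions, spanned 45.9 kb at 4:502343-548250, and 96.0% of that stretch was enriched in at least 1 list. Replicate 1 had 7 regions in it, replicate 2 had 8 and the combined list 8, and 3 of the 6 merged regions were in all lists. A shorter run of 13.6 kb at 4:723214-736786 was 98.1% covered, with 3 regions in each list. The run of 8.28 kb at 4:412514-420791 was 91.9% covered by 3 regions of replicate 1 and 3 of the combined list and by 0 of replicate 2. The highest scores in the longest run were 1.19 in replicate 1 and 0.82 in replicate 2, those in the 13.6 kb run were 0.83 and 0.99, and the shortest run reached 0.88 in replicate 1. Because gaps under 1 kb set the runs, part of their coverage is built in. Runs of fewer merged regions were left out, among them 4:826004-831310 with 4:831328-856620, the latter 25.3 kb wide by itself.

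When chromosome 4 was divided into 10 equal parts, every part held regions in every list, but the covered share was uneven. The fourth part was the most covered in replicate 1, at 40.5%, and had 17.4% in replicate 2 and 41.8% in the combined list. In replicate 2 the seventh part was highest, with 22.8%, against 22.2% in replicate 1. The third part was lowest in replicate 2 (2.79%, 12.3% in replicate 1) and the ninth lowest in replicate 1 (9.56%, 6.27% in replicate 2). Only parts 1, 4 and 8 reached the autosomal share of 26.8% in replicate 1, and no part reached the autosomal 29.6% in replicate 2. The longest stretch without a region in any list was 63.8 kb, from 743659 to 807483, and the next was the first 63.1 kb of the sequence. Of the 84 gaps between neighbouring merged regions 48 were under 10 kb, and the median gap was 5.83 kb.

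**Figure D1:**
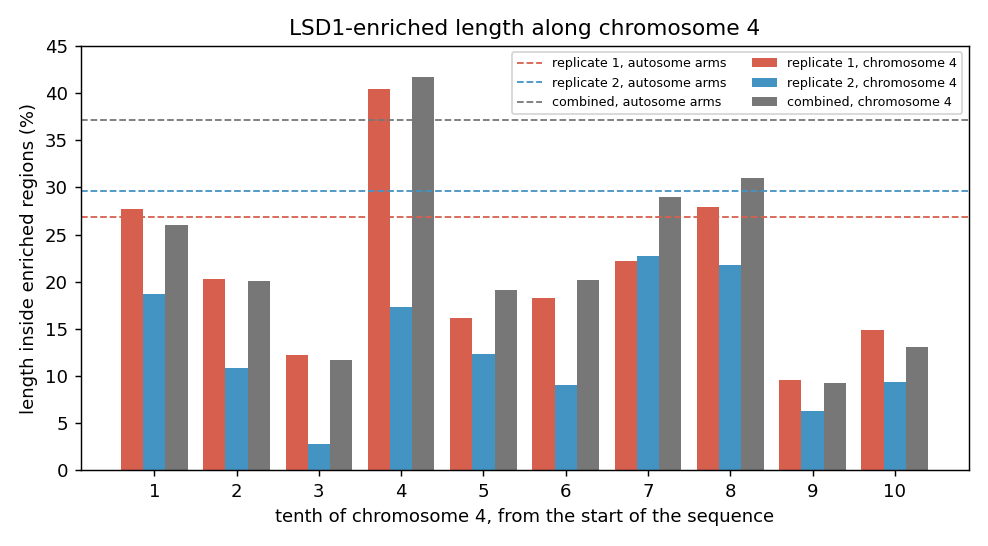
Percent of each of 10 equal parts of chromosome 4 (x axis, in order along the sequence) that lay inside enriched regions (y axis), as bars for replicate 1, replicate 2 and the combined list. Dashed lines give the same share of the autosome arms in each list. All 10 bars of replicate 2 stay below its dashed line at 29.6%, and the fourth part reaches 40.5% in replicate 1 against 17.4% in replicate 2.

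The highest scores of chromosome 4 lay in a short group of regions near the end of its sequence. After a gap of 53.25 kb, 6 merged regions followed each other between 1290079 and 1323904, a span of 33.8 kb, and 27.95 kb without a region separated the last of them from the end. All 6 were held by all 3 lists, were 2039 to 2500 bp wide, and started 4.82 to 8.20 kb apart. The group was picked out after its values were seen, and its scores are given as a description.

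At the second of these regions, 4:1296144-1298594, replicate 1 scored 2.74 and replicate 2 scored 1.97 (2.36 ± 0.55, SD, n = 2), and the combined list 2.42, or 5.36-fold. Its rank was 4 of 8115 in replicate 1, 4 of 9911 in replicate 2 and 11 of 11016 in the combined list. The fifth, 4:1315500-1317876, scored 2.12 and 1.64 in replicates 1 and 2 (1.88 ± 0.35) and 1.93 combined. The first, 4:1290079-1292312, scored 2.04 and 1.17 (1.61 ± 0.62) and 1.66 combined, and the sixth, 4:1321405-1323904, scored 1.58 and 1.48 (1.53 ± 0.066) and 1.51 combined. The middle of the group was lower than its ends. The third region, 4:1304344-1306382, had 1.06 and 1.01 in replicates 1 and 2, and the fourth, 4:1309161-1311323, had 0.59 and 0.62, which is below the chromosome 4 median of either list. Over the group the medians were 1.81 in replicate 1 and 1.33 in replicate 2, against 0.88 and 0.75 over the other 79 merged regions of chromosome 4, where 72 had a replicate 1 score and 44 a replicate 2 score. Of those 79, 40 were in all 3 lists.

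**Figure D2:**
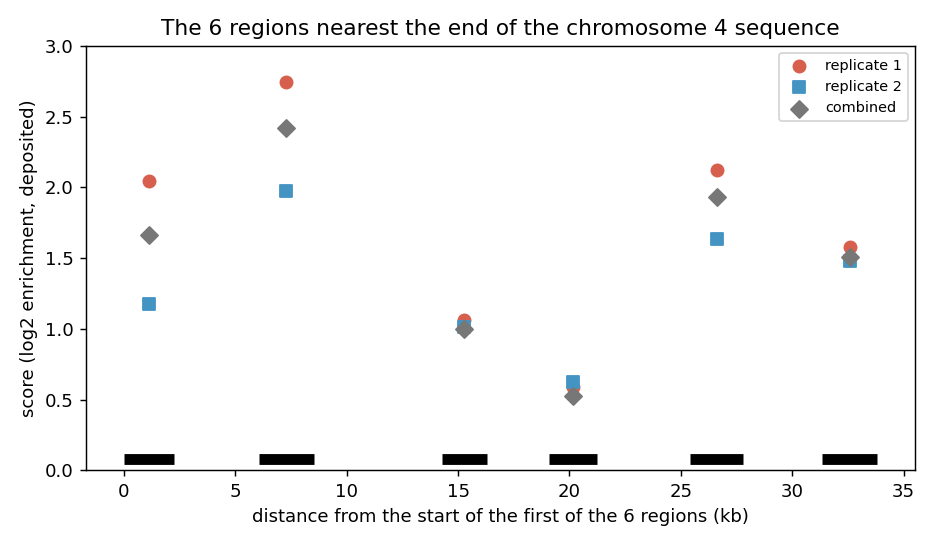
Scores (y axis, log2 enrichment as deposited) of the 6 merged regions nearest the end of the chromosome 4 sequence, placed by distance in kb from the start of the first of them (x axis). Black bars give their widths, and circles, squares and diamonds stand for replicate 1, replicate 2 and the combined list. The second region reaches 2.74 in replicate 1 and 1.97 in replicate 2, and the fourth stays near 0.6 in all lists.

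Among the 10 merged regions of chromosome 4 with the highest combined score that both replicates held, 4 belonged to that group. Outside it the highest was 4:151400-154407, with 2.02 in replicate 1, 1.31 in replicate 2 and 1.58 combined. The next was the broad region 4:86497-98078 described above. Further scores are in the order replicate 1, replicate 2 and combined. The region 4:465056-468799 followed with 1.62, 0.96 and 1.37, and 4:211690-215797 with 1.51, 1.08 and 1.23. At 4:678917-682158 the scores were 1.53, 0.82 and 1.16, and at 4:444384-446626 they were 1.28, 1.06 and 1.14. Replicate 1 was the higher in all 10, by 0.094 to 0.87 with a median of 0.61. The combined score chose these regions and may share reads with both libraries, so this count is a description. In pairs matched by longest overlap replicate 1 was higher in 34 of 50 (68%) on chromosome 4 and in 24.8% over all sequences.

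The 10 regions of the heterochromatic and unplaced sequence with the highest combined score were taken among those held by both replicates. Most were of unequal height in the replicates. At U:3442002-3444592 replicate 1 scored 2.57, replicate 2 scored 1.00 (1.78 ± 1.11, SD, n = 2) and the combined list 1.92. The region 3RHet:1767438-1770311 was alike, with 2.53, 1.06 and 1.84 in the same order. Scores were 2.13, 1.45 and 1.72 at 3LHet:680626-683004, and 2.22, 1.21 and 1.65 at U:1101142-1105120. The replicates lay closer at 3RHet:1822586-1825294, with 1.78, 1.59 and 1.65. At U:7729066-7731497 they were nearly equal, with 1.55 in replicate 1, 1.58 in replicate 2 and 1.52 combined.

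The remaining 4 of these 10 regions were U:6903598-6905892 (1.84 for replicate 1, 1.19 for replicate 2 and 1.58 combined), U:5629747-5632212 (1.79, 1.22 and 1.54), 3LHet:458450-461276 (1.73, 1.27 and 1.50) and 2RHet:1333993-1337840 (1.68, 1.15 and 1.36). Replicate 1 was higher in 9 of the 10, with a median difference of 0.61. The combined score chose these 10 regions and may share reads with both libraries, so the count is a description. In pairs matched by longest overlap replicate 1 was higher in 31 of 41 (75.6%) on the Het contigs and U and in 24.8% over all sequences. All 10 were under 4 kb wide. That does not set them apart, since the merged regions there held by all 3 lists had a median width of 2800.5 bp.

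The 5 widest merged regions of the Het contigs and U lay on 3LHet, 3RHet and 2LHet. The next, 2RHet:3195568-3200498, was nearly as wide as the last of them, at 4.93 kb. The only merged region of at least 10 kb was 3LHet:207336-220046, 12.7 kb wide, which replicate 1 listed as 1 region (1.35), replicate 2 as 3 (highest 1.16) and the combined list as 1 (1.16). It stood beside 3LHet:222822-232181, 9.36 kb wide, with highest scores of 0.90 and 0.83 in replicates 1 and 2. Together with a narrow region on either side they formed a group of 4 in 32.3 kb, of which 79.5% was enriched in at least 1 list. On 3RHet the widest were 3RHet:2376130-2384284 of 8.16 kb (1.03 and 0.85 in replicates 1 and 2) and 3RHet:1806930-1812079 of 5.15 kb (1.64 and 1.24), and on 2LHet it was 2LHet:30378-35729 of 5.35 kb (1.00 and 0.85). The highest replicate scores of each of the 5 widest regions were within 0.40 of each other. Pairs matched by longest overlap inside 3RHet:2376130-2384284 differed by -0.37 to 0.44 (replicate 1 minus replicate 2).

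Regions were not spread evenly along the contigs. All 13 merged regions of 3RHet lay in its last part, from 1704335 to 2450306, and the first 67.7% of its length had none in any list. XHet held its 5 merged regions within 24.6 kb, from 56202 to 80830, and the following 123 kb held none. The XHet scores were low and even, at 0.42 to 0.80 in replicate 1 and 0.55 to 0.68 in replicate 2. On 2RHet, 9 merged regions lay in the first 500 kb, of which 8 had a replicate 1 region and 2 a replicate 2 region. The other 9, from 1003702 to 3200498, all had a replicate 1 region and 6 had a replicate 2 region. Apart from the start of 3RHet, which has the longest such stretch, the longest without a region were 531 kb on 2RHet, 618 kb on 3LHet and 1344 kb on U.

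The replicate lists were nested on these sequences to a degree that differed from the whole lists. Of the 86 replicate 1 regions of chromosome 4, 50 were overlapped by replicate 2, or 58.1% (Wilson 95% interval 47.6% to 68.0%, which covers counting of regions only), where the share over all sequences was 75.5%. In the other direction 58 of 64 replicate 2 regions, or 90.6% (81.0% to 95.6%), were overlapped by replicate 1, where the share over all sequences was 70.7%. The Het contigs and U gave nearly the same, with 41 of 71 (57.7%, 46.2% to 68.5%) and 45 of 49 (91.8%, 80.8% to 96.8%). So on both sets a smaller share of replicate 1 regions, and a larger share of replicate 2 regions, had a counterpart than in the whole lists. The Het contigs alone gave 35 of 54 (64.8%, 51.5% to 76.2%) and 39 of 41 (95.1%, 83.9% to 98.7%). U alone gave 6 of 17 (35.3%, 17.3% to 58.7%) and 6 of 8 (75%, 40.9% to 92.9%). The interval of the Het contigs in the first direction and that of U in the second contain the whole-list share. All these intervals treat regions as independent and leave out the spread between replicates. They therefore test no difference from the whole lists. On X the same shares were 61.4% and 80.1%, and on the autosome arms 79.7% and 68.6%. Replicate 2 listed fewer regions than replicate 1 on chromosome 4, on U and on the Het contigs as a whole, about as many on X (1605, against 1655 in replicate 1) and more on the autosome arms, and the part of these numbers in the shares was not tested.

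Joining the lists gave the same picture by region. On chromosome 4, 46 of 85 merged regions (54.1%) were held by all 3 lists, against 41% over all sequences. A further 24 were in replicate 1 and the combined list (28.2%, against 13.5%), 8 in replicate 1 alone (9.41%, against 2.31%), and 4 in replicate 2 and the combined list (4.71%, against 15.9%). None was held by replicate 2 alone (7.06% over all sequences), and the combined list alone held 3 (3.53%, against 20.2%). On the Het contigs 32 of 59 were in all lists (54.2%), 14 in replicate 1 and the combined list (23.7%), 5 in replicate 1 alone (8.47%) and 6 in the combined list alone (10.2%), with 1 in replicate 2 and the combined list and 1 in replicate 2 alone (1.69% each). On U a smaller share was in all lists, with 6 of 27 (22.2%). There 9 were in replicate 1 and the combined list (33.3%), 8 in the combined list alone (29.6%) and 2 in replicate 1 alone (7.41%), with 1 in replicate 2 and the combined list and 1 in replicate 2 alone (3.70% each). Merged regions of all 3 lists were the wider ones, with medians of 3212 bp on chromosome 4 and 2800.5 bp on the Het contigs and U, against 1444.5 bp and 1475 bp for those of replicate 1 alone. A merged region grows with each list that joins it, so part of that order is built in.

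**Figure D3:**
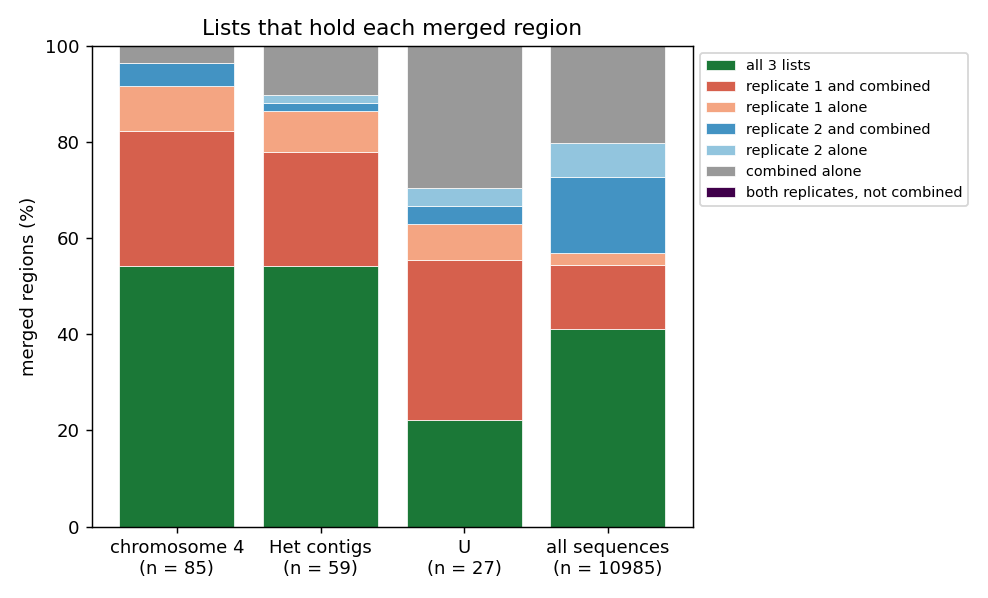
Percent of merged regions (y axis) held by each combination of lists, for chromosome 4, the Het contigs, U and all sequences (bars, left to right, with the number of merged regions). Regions held by all 3 lists make up 54.1% on chromosome 4 and 22.2% on U, against 41% over all sequences, and the share held by replicate 2 without replicate 1 is smaller on chromosome 4 and the Het contigs than over all sequences.

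Seen from the combined list, 48 of 85 regions of chromosome 4 (56.5%) were overlapped by both replicates, against 44.2% over all sequences, and 30 (35.3%) by replicate 1 but not replicate 2, where the whole list had 16.1%. Only 4 (4.71%) were overlapped by replicate 2 but not replicate 1, where the whole list had 19.5%, and 3 (3.53%) by neither, where it had 20.1%. On the Het contigs and U the shares were 49.4% by both, 29.9% by replicate 1 alone, 2.60% by replicate 2 alone and 18.2% by neither. The pooled share for neither replicate averaged 6 of 53 (11.3%) on the Het contigs and 8 of 24 (33.3%) on U, which lie on either side of the whole-list share.

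Scores of matched regions were more often higher in replicate 1, the reverse of the autosome arms. Each replicate 1 region was paired with the replicate 2 region that overlapped it most. Replicate 1 scored higher in 34 of 50 pairs on chromosome 4 (68%) and in 31 of 41 pairs on the Het contigs and U (75.6%), where the share over all sequences was 24.8%. The median of replicate 1 minus replicate 2 was 0.12 on chromosome 4 and 0.29 on the Het contigs and U, against -0.19 over 5021 pairs of the autosome arms. Each list carries its own constant, so the autosomal median was taken off, which left 0.31 on chromosome 4 and 0.48 on the Het contigs and U, and 0.12 on X. By this measure 42 of 50 pairs on chromosome 4 (84%) and 37 of 41 on the Het contigs and U (90.2%) lay above the autosomal median difference. Over all sequences 3292 of 6128 pairs did (53.7%), and on X 703 of 1016 (69.2%). Leaving out pairs in which either score came from a ratio with a denominator under 10 in lowest terms gave 0.31 and 0.48 again.

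**Figure D4:**
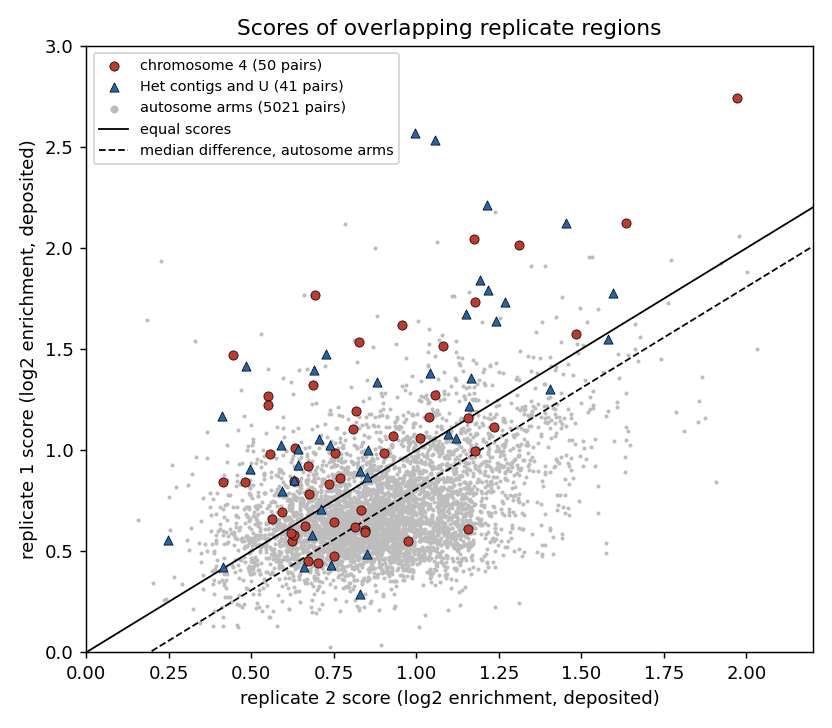
Replicate 1 score (y axis) against replicate 2 score (x axis), both log2 enrichment as deposited, for pairs of overlapping regions on chromosome 4 (red circles), the Het contigs and U (blue triangles) and the autosome arms (grey points). The solid line marks equal scores and the dashed line the autosomal median difference of -0.19. Above the dashed line lie 42 of 50 red and 37 of 41 blue symbols, against 53.7% of pairs over all sequences and 69.2% on X.

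The difference between replicates was not even along chromosome 4. In its first 4 parts of 10, replicate 1 had the higher score in 17 of 19 merged regions that both replicates held, with a median difference of 0.37. In parts 5 to 8 it was higher in 8 of 17, with a median of -0.040, and in parts 9 and 10 in 8 of 10, with a median of 0.17. Parts 5 to 8 were not alike, with medians of -0.11, -0.073, -0.12 and 0.17 in order, over 4 or 5 regions each. In part 8 replicate 1 was higher in 3 of 4. The largest single difference on chromosome 4 among merged regions was 1.03, at 4:324782-329342, where replicate 1 scored 1.47 and replicate 2 scored 0.44, and the most negative was -0.42, at 4:729584-736786, with 0.55 and 0.98. Among the contigs replicate 1 was higher in 7 of 7 merged regions on 3RHet, 7 of 8 on 2RHet and 9 of 13 on 3LHet, but in 1 of 2 on 2LHet and 0 of 2 on XHet. On U it was higher in 5 of 6. All these counts take the highest score of each list in a merged region, and their share over all sequences is not given here. The 24.8% over all sequences belongs to pairs matched by longest overlap, which is another measure. The cut into these parts was made after the values were seen.

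Within each list the median score was set against that of the autosome arms, where the constant of the list cancels. On chromosome 4 the median was 0.85 in replicate 1 and 0.75 in replicate 2, against 0.65 and 0.82 on the autosome arms, so the difference was 0.20 for replicate 1 and -0.069 for replicate 2 (0.066 ± 0.19, SD, n = 2). The combined list had 0.53 on chromosome 4 and 0.48 on the autosome arms. On the Het contigs and U the medians were 1.06 and 0.83, which is 0.41 and 0.012 above the autosome arms (0.21 ± 0.28). The sign on chromosome 4 thus depended on the replicate, and on the pooled Het contigs and U the excess was larger in replicate 1. The combined list gave a difference of 0.29 there. For the Het contigs alone the differences were 0.37 in replicate 1 and -0.036 in replicate 2, and on U alone 1.11 and 0.39. Without replicate 1 the mean difference on chromosome 4 is -0.069. On U alone the medians were 1.77 over 17 regions and 1.20 over 8.

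The upper end of the lists shows the same division. Of the 20 highest scores in replicate 1, 11 were on these sequences, 4 on chromosome 4 and 7 on the Het contigs or U. In replicate 2 there was 1 of 20, on chromosome 4, and in the combined list 5 of 20, of which 2 were on chromosome 4 and 3 on U. Among the 100 highest replicate 1 had 27 on these sequences, replicate 2 had 5 and the combined list 19, whereas their shares of the whole lists were 1.93%, 1.14% and 1.47%.

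Some of the highest scores came from small ratios. Once the constant of a list is divided out, a score back-transformed to a fold is a quotient of whole numbers, which held for 8110 of the 8115 replicate 1 scores, and small whole numbers leave a score imprecise. No source used here says what these numbers count, and in lowest terms they can understate the original numbers. The highest score of replicate 1, 3.31 at U:2096500-2097916, or 9.92-fold, was a ratio of 15 to 1, and the next, 3.21 at U:3915942-3917300, or 9.26-fold, was 14 to 1. They were 1417 bp and 1359 bp wide, and neither was in another list. The third, 2RHet:2283332-2285694, was a ratio of 88 to 7 with 3.06 in replicate 1, had no replicate 2 region and scored 1.51 in the combined list. The highest chromosome 4 region, 4:1296144-1298594, rested on ratios of like size, 152 to 15 in replicate 1 and 71 to 7 in replicate 2. Larger numbers stood behind U:7729066-7731497, with 2642 to 597 and 2101 to 272.

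The combined list held similar cases. U:9596102-9597136 scored 2.13 there from a ratio of 25 to 3, U:9702104-9703118 scored 2.07 from 8 to 1, and 3RHet:2449294-2450306 scored 1.83 from 27 to 4. These were 1035, 1015 and 1013 bp wide, and none had a region in either replicate, where the narrowest region of any sequence was 1301 bp.

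Ratios with a denominator under 10 in lowest terms, some of which may be reductions of larger numbers, were counted in every set. In replicate 1 they made up 12 of 71 regions on the Het contigs and U (16.9%), 6 of 17 on U alone and 6 of 86 on chromosome 4 (6.98%), where the share over all sequences was 4.5%. In replicate 2 they made up 5 of 49 (10.2%) on the Het contigs and U and 6 of 64 (9.38%) on chromosome 4, where the share over all sequences was 7.99%. In the combined list there were 5 of 77 and 2 of 85, where the whole list had 3.2%. On the Het contigs and U, 11 of the 30 replicate 1 regions without a replicate 2 counterpart had such a denominator (36.7%), as did 1 of the 41 with a counterpart (2.44%). On chromosome 4 the counts were 3 of 36 (8.33%) and 3 of 50 (6%). Over all sequences the shares were 8.51% without and 3.2% with a counterpart. Without these regions the median score minus that of the autosome arms was 0.064 on chromosome 4 and 0.19 on the Het contigs and U, as a mean of the replicates.

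**Figure D5:**
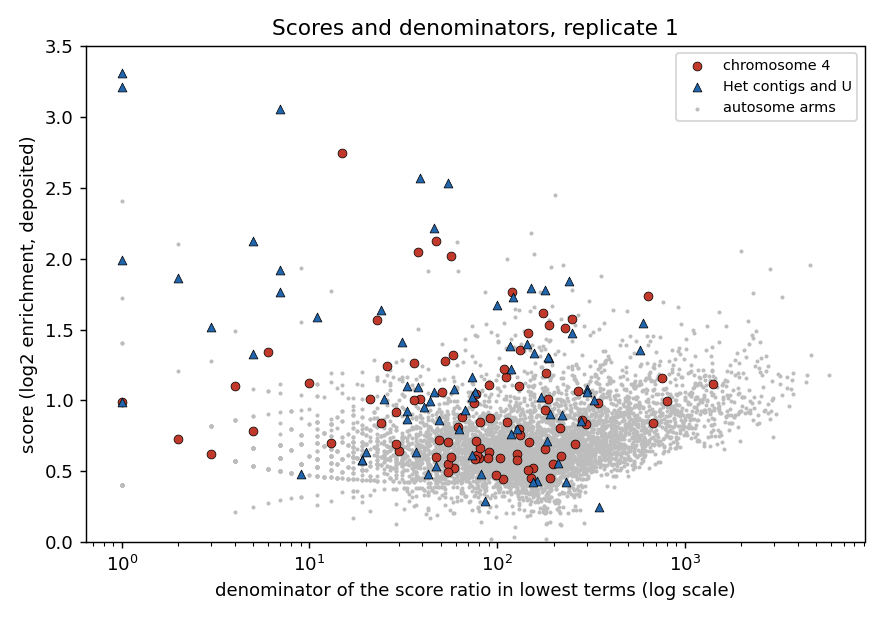
Replicate 1 score (y axis, log2 enrichment as deposited) against the denominator of its whole-number ratio in lowest terms (x axis, log scale), for chromosome 4 (red circles), the Het contigs and U (blue triangles) and the autosome arms (grey points). The scores of 3.31 and 3.21 on U stand at a denominator of 1, and the chromosome 4 region at 2.74 stands at 15.

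The whole-number ratios also moved between replicates in another way. The 80th percentile of denominators per kb of region on chromosome 4 was 0.717 of that on the autosome arms in replicate 1 and 1.11 of it in replicate 2, and for the Het contigs and U it was 0.674 and 1.05. For numerators it was 0.824 and 1.02 on chromosome 4, and 0.903 and 1.07 on the Het contigs and U. On chromosome 4 and on the pooled Het contigs and U, then, denominators were below those of the autosome arms in replicate 1 by more than numerators were. The pooled values come from unlike sequences, since denominators stood at 0.668 and 0.993 on the Het contigs alone and at 1.05 and 1.98 on U alone. On X the denominators stood at 0.538 and 0.699. A lower denominator gives a higher score, and the part of these values in the score differences between replicates was not tested.

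Regions found by replicate 1 without replicate 2 were narrower than those with a counterpart on both sets. On chromosome 4 the 36 without had a median width of 1966 bp and a median score of 0.78, against 2669 bp and 0.99 for the 50 with. On the Het contigs and U the 30 without had medians of 1933 bp and 1.03, against 2674 bp and 1.08 for the 41 with. The autosome arms showed the same order, with 1637 bp without a counterpart and 2532 bp with. The highest such score on chromosome 4 was 1.57 at 4:1218629-1220783, which had 0.51 in the combined list. Next were 1.36 at 4:272566-275694, with 0.87 combined, and 1.34 at 4:742326-743658, which was in no other list and came from a ratio of 23 to 6. Replicate 2 regions without a replicate 1 counterpart were few, 6 on chromosome 4 and 4 on the Het contigs and U. Of these, U:5831900-5833707, with a score of 1.59 from a ratio of 39 to 5, was in no other list, as was 3RHet:1929945-1931732 with 0.84.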

How the data were processed

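LSD1 ChIP-seq was represented by 3 deposited lists of enriched regions, 1 per ChIP library and 1 combined. The deposited scores were taken to be log2 values of ChIP enrichment. No header names the scale, and it was inferred from the values. After a log2 constant was subtracted (-0.60 in replicate 1, -1.37 in replicate 2, -0.93 combined), 2 to the power of the remainder was a whole-number ratio for 8110 of 8115, 9911 of 9911 and 10988 of 11016 scores at a relative tolerance of 1e-12 with denominators up to 6000. Bowtie 0.12.7, a read aligner, is named in the submitters' processing notes, and positions follow release 5 of the fly genome per the file headers. Details of the region caller, its threshold, the scaling to input, the treatment of reads with several matches and the making of the combined list were not given in the sources used here.

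Regions were selected by sequence name, and sequence lengths came from the headers. Regions sharing at least 1 bp were called overlapping and merged, and a merged region takes the highest score of each list. The 3 entries of the combined list typed as depletion, 0 of them on these sequences, were left out. The supplied gene table follows release 6, so no gene was assigned and none of its coordinates was used. Named regions are the 10 with the highest combined score held by both replicates, the 5 widest, and the 3 with the highest score held by 1 replicate, for chromosome 4 and for the Het contigs with U. Members, lists and rules were chosen with earlier results of these data known. Computation used Python 3.11.15, numpy 2.4.6, pandas 2.3.3 and scipy 1.17.1, with matplotlib 3.10.9 for plots, and was tested on simulated data. Alternatives were a stricter overlap, the upper 50% of each list by score, merging over 500 bp, the combined list, other pairs and each replicate left out.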

Additional observations from a re-analysis of the deposited data

How the results depend on the processing

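Of 64 alternative values, 52 stayed within 1 SD of the replicates, the 95% interval or 1.5 times the count, 12 moved and 0 were reversed by that rule. With 2 replicates, a mean with either left out always stays within 1 SD. Those values of density, coverage, score and width were thus bound to count as unmoved, even where a sign changed, and say nothing about stability. A reciprocal overlap of at least 50% gave 44.2% for replicate 1 regions of chromosome 4 overlapped by replicate 2, 59.4% for the opposite direction (73.5% on the Het contigs and U), and 41.2% for combined chromosome 4 regions overlapped by both replicates. The upper 50% of regions by score gave 76% for the last of these, 29.96 regions per Mb on chromosome 4 and 2.04 on the Het contigs and U, and median widths -1023 bp and -1248.75 bp from the autosome arms (47.75 and 10.5 bp with all regions). Both width differences changed sign there, which the rule counted as moved and not as reversed. The combined list gave 3.98 regions per Mb on the Het contigs and U and width differences of 394 bp on chromosome 4 and 158 bp on the Het contigs and U. A reciprocal overlap can only lower an overlap share, and keeping the upper 50% by score can only lower a density, so those moves follow from the settings. The cause of the other moves was not tested. With either replicate left out, chromosome 4 had 47.3 to 63.6 regions per Mb and 13.1% to 21.0% covered, and its median score stood -0.069 to 0.20 from the autosome arms, a change of sign. The Het contigs and U had 2.53 to 3.67 regions per Mb and a score difference of 0.012 to 0.41. Width differences ran from -65.5 to 161 bp on chromosome 4 and from -91 to 112 bp on the Het contigs and U. Merged regions numbered 85 to 85 and 79 to 84. The equal counts on chromosome 4 do not mean the same regions, since 8 merged regions there were held by replicate 1 alone. Alternatives on denominators under 10 and on the narrowest replicate region were added after the data were seen. No paired analysis was possible because the results come from no test and each ChIP library enters only through a list already set against its own input.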
